A study of Rattus norvegicus with 224 samples.

Results

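Some genes that copy DNA at the replication fork were called lower in rat aortic smooth muscle cells under rapamycin or 25 mM glucose. The glucose calls, the clamp gene Pcna and the flap nuclease gene Fen1, were at 6 h. At 100 ng/mL rapamycin, Pcna and the primase gene Prim1 were called at 6 h and Fen1 at 24 h. With the 4 runs as the unit, 0 members were called for that dose at either hour, and 2 for glucose at 6 h. Each of these rapamycin and glucose calls, except that of Pcna for glucose, was lost when some single run was left out. The group held 10 genes of the 6502 named on the array: Pcna, Rfc2, Rfc3, Rfc4, Rfc5, Pola1, Pold1, Prim1, Prim2 and Fen1. They were chosen by their symbols in the platform's probe annotation, and each was measured by 1 probe. The cells had been grown out of the aortas of newborn rat pups, cultured over several passages and held in low serum before treatment, so they were a cultured primary population and not intact artery. Each array set Cyanine-5 labelled cell RNA against Cyanine-3 labelled RNA pooled from whole newborn pups. There were 224 arrays in 56 groups of 4 runs, named A to D. Cells received rapamycin at 0.01, 1 or 100 ng/mL, paclitaxel at 0.01, 1 or 1000 ng/mL, or the vehicle DMSO, and RNA was taken after 24 h or 6 h. Every drug condition was crossed with 100 nM insulin or its vehicle, and with 25 mM or 5 mM glucose, the glucose having been set 24 h before the drugs. The sex of the pups was not given, and the series' text and the sample labels differ on serum level, dish size and the length of quiescence.

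A replication fork copies DNA with a fixed set of machines. The primase, made of the catalytic subunit Prim1 and the large subunit Prim2, lays down a short RNA primer that DNA polymerase alpha, with its catalytic subunit Pola1, extends with DNA. The clamp loader, built from Rfc1 and the small subunits Rfc2, Rfc3, Rfc4 and Rfc5, then opens the ring-shaped clamp Pcna and closes it around the primed DNA. Polymerase delta, with its catalytic subunit Pold1, runs on that clamp, and Fen1 removes the displaced primer flaps so that the pieces of the lagging strand can be joined. Many of these genes are transcribed as cells enter S phase, under E2F factors. Rapamycin inhibits the growth kinase mTOR, and paclitaxel stabilises microtubules and blocks mitosis; both have been placed on stents to hold back smooth muscle growth.

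Promoters are shown for 4 members, because Pcna and Fen1 were called for both rapamycin and glucose, Pola1 was the 1 member called higher at 24 h than at 6 h, and Rfc3 was the member with the most E2F words. The windows run from 250 bases before to 50 bases after each gene's start and come from RefSeq, build GRCr8, in which all 10 members were matched. They are written 5′ to 3′ on the gene's own strand. The E2F words searched were TTTCCCGC, TTTCGCGC, TTTGCCGC and TTTGGCGC, and the other motif was CCAAT, all on both strands. Matches stand in capitals. The windows are chr3:139955771-139956070 on the minus strand for Pcna, chr1:216274347-216274646 on the minus strand for Fen1, chrX:62342306-62342605 on the minus strand for Pola1, and chr12:5836318-5836617 on the plus strand for Rfc3.
Pcna: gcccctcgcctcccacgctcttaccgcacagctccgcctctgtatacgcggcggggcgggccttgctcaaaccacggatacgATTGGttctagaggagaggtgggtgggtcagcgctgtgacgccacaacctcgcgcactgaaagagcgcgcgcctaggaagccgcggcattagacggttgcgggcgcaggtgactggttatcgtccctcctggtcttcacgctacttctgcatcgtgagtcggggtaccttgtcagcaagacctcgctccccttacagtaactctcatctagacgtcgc
Fen1: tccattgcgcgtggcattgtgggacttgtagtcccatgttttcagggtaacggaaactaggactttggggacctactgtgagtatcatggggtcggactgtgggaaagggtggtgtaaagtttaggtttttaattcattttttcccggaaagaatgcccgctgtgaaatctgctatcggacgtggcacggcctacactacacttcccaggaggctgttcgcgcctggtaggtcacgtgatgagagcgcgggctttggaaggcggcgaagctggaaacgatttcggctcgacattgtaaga
Pola1: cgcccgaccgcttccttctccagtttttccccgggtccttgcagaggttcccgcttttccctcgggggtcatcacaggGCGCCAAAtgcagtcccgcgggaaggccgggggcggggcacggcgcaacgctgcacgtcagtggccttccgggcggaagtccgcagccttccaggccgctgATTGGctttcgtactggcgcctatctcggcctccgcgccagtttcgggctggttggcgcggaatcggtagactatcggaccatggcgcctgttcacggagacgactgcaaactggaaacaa
Rfc3: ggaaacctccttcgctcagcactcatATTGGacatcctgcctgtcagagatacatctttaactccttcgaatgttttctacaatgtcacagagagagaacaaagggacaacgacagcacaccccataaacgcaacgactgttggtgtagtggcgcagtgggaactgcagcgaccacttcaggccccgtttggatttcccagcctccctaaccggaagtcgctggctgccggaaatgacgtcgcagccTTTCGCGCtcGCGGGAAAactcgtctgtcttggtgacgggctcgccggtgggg
E2F words were found in 2 of 10 members. Rfc3 held TTTCGCGC and GCGGGAAA, the second being TTTCCCGC read on the other strand, and Pola1 held GCGCCAAA, which is TTTGGCGC on the other strand. No E2F word overlapped a CCAAT. Of all 33469 promoters in the table, 2.14% held an E2F word, and of the 5619 promoters of genes on the array, 3.72% did. CCAAT was found in 5 of 10 members, Pcna, Rfc3, Pola1, Pold1 and Prim1, and in 37.5% of all promoters. These are matches of letters only, and a window without a match says only that these letters are not in it.

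The values are scores that the authors standardized within each array, so differences are given in array SDs and carry no fold change, and levels of different genes cannot be set side by side. Each array had a mean of 0 and an SD of 1. The direction is likely cells over pup reference, by the dyes in the labels; if the deposited ratio ran the other way, every higher and lower below would turn together. The lowest correlation between arrays was -0.526, and 1.46% of array pairs lay under -0.3. Since every probe is nearly centred over the arrays, the level of smooth muscle markers could not be used to check the cell type. Vehicle and insulin arrays of run A at 0.01 ng/mL rapamycin, 25 mM glucose and 6 h were almost one array (r = 0.99993, 99.5% of probes within 0.01), and counting them once changed no count of members. The labels do not say whether runs were separate cultures or animals, so each p measures only the spread between these arrays, whose number limits the precision. Of the 18 measured markers of endothelium, leukocytes, adventitial fibroblasts, cartilage and bone, 0 were called under rapamycin at any dose and hour (at most 3 at an unadjusted p under 0.05), and 0 for glucose at 6 h (1 at an unadjusted p under 0.05).

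Mean scores of some members followed the order of rapamycin dose, those of others did not, and the members that did differed between the hours. At 24 h mean scores of Fen1 (16 arrays each) were -0.0320 in DMSO and -0.0193, -0.780 and -1.33 at 0.01, 1 and 100 ng/mL. There the lowest dose lay slightly above DMSO, so the order was not kept. At 6 h the means of Fen1 kept the order, through 0.659 in DMSO, 0.603, 0.274 and -0.269 at the same doses. The ranges of single arrays overlapped between neighbouring doses at both hours. Pcna kept the same order at 6 h, through 0.545 in DMSO, 0.0965, -0.195 and -0.351. Rfc2, Pola1 and Prim1 kept it at 6 h too, but not at 24 h. Rfc4, one of the small loader subunits, showed no such order, with means between -0.258 and 0.174 over these arms at 6 h. Rfc3, Rfc5, Pold1 and Prim2 did not keep the order at 6 h either. At 6 h Pold1 and Prim2 were higher at 0.01 ng/mL than in DMSO (0.655 against 0.492, and 0.717 against 0.371). The order at 24 h was kept by Pcna and Rfc3 alone. Rfc3 ran there through -0.182 in DMSO, -0.417, -0.486 and -0.632. Rfc2 and Pola1 were higher at 0.01 ng/mL than in DMSO at 24 h (-0.159 against -0.197, and 0.584 against 0.127). Prim1 was lower at 1 than at 100 ng/mL there (-0.861 against -0.594).

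**Figure D1:**
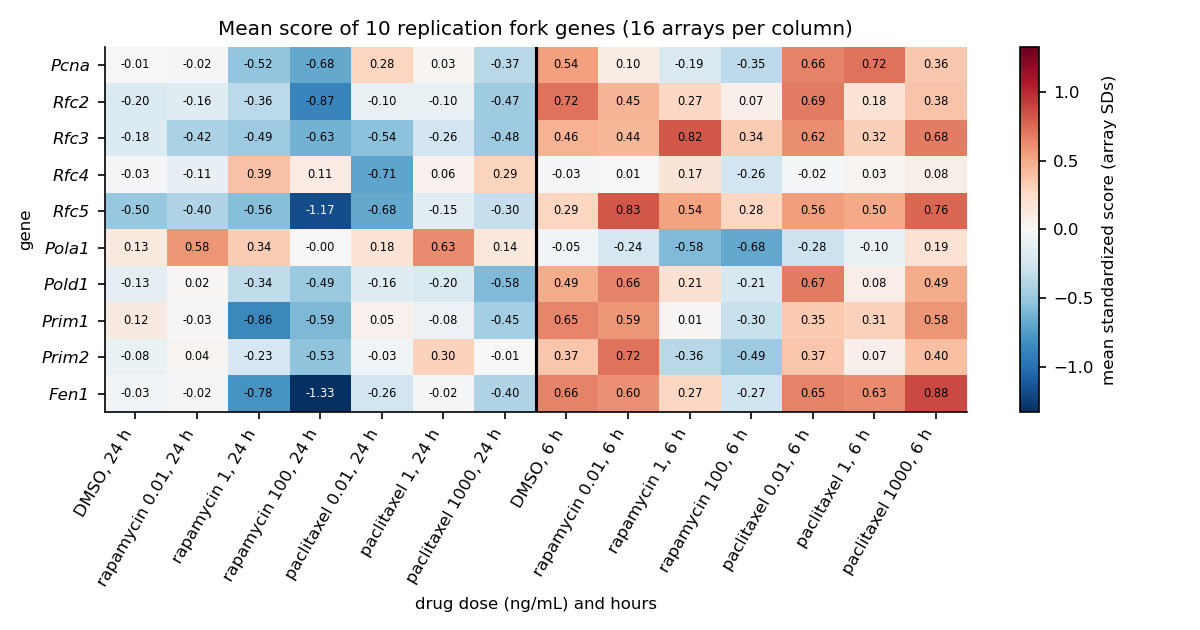
Mean standardized score (array SDs, colour and printed value) of the 10 genes (rows) in each drug arm (columns, doses in ng/mL, 16 arrays each), 24 h left of the black line and 6 h right of it. Fen1 is lowest at 100 ng/mL rapamycin and 24 h (-1.33). Over all arrays, Rfc4 (a difference of 0.00260 between the hours) and Pola1 (0.532) are not lower at 24 h. In single arms they can be, as with Rfc4 at 0.01 ng/mL paclitaxel (-0.705 against -0.0183 at 6 h). Pola1 at 1000 ng/mL paclitaxel is another such arm (0.137 against 0.195).

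Pcna and Prim1 were called lower under 100 ng/mL rapamycin at 6 h, calls that were lost with the runs as the unit (adjusted p = 0.237 and 0.134). Pcna scored -2.09, -0.158 and 0.664 (lowest, median and highest of 16 arrays) under rapamycin, against -1.12, 0.694 and 2.03 in DMSO. The ranges overlapped, but all 16 rapamycin arrays lay below the DMSO median. The mean was -0.351 ± 0.729 under rapamycin and 0.545 ± 0.883 in DMSO (SD, n = 16 each), a difference of -0.895 ± 0.276 (SE; limma adjusted p = 0.0351). Prim1 scored -1.38, -0.277 and 0.857 under rapamycin, against -1.26, 0.605 and 1.94 in DMSO, with 15 of 16 rapamycin arrays below the DMSO median. Its difference was -0.954 ± 0.293 (limma adjusted p = 0.0338). Thus 2 of 10 members were called lower and 0 higher, against 2.18% of all 11575 probes called lower. Fewer cells in S phase and less RNA per cell cannot be told apart in RNA from whole dishes.

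The other members lay below DMSO and were not called. Fen1 stood at -0.928 ± 0.329 (limma adjusted p = 0.0815), and was called without run D (-1.27, 0.0256) and with the run by hour as the block (0.0471), where Rfc2 was called too (0.0496). Prim2 stood at -0.858, Pold1 at -0.706, Rfc2 at -0.655 and Pola1 at -0.631. The remaining loader subunits stood close to DMSO, with Rfc4 at -0.230, Rfc3 at -0.126 and Rfc5 at -0.00888. All 10 differences were below 0, 6 of them at an unadjusted p under 0.05, and their median was -0.680, against -0.0221 for all probes. In each of the 4 combinations of insulin and glucose, the means of Pcna, Rfc2, Pola1, Prim1, Prim2 and Fen1 were below those in DMSO. These differences were uneven, from -1.90 to -0.390 for Fen1, from -1.30 to -0.0433 for Rfc2 and from -1.46 to -0.0065 for Prim2. The 2 calls leaned on single runs. Pcna differed by -2.33 in run D and by -0.0608, -0.653 and -0.538 in runs A, B and C. Without run D it stood at -0.417 (adjusted p = 0.569), without B at -0.976 (0.0761) and without C at -1.01 (0.0895). Prim1 passed without run C alone, and stood at -0.863 without A (0.219), -1.03 without B (0.0646) and -0.705 without D (0.314). With the 4 runs as the unit, 0 members were called by limma and 7 had an unadjusted p under 0.05.

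**Figure D2:**
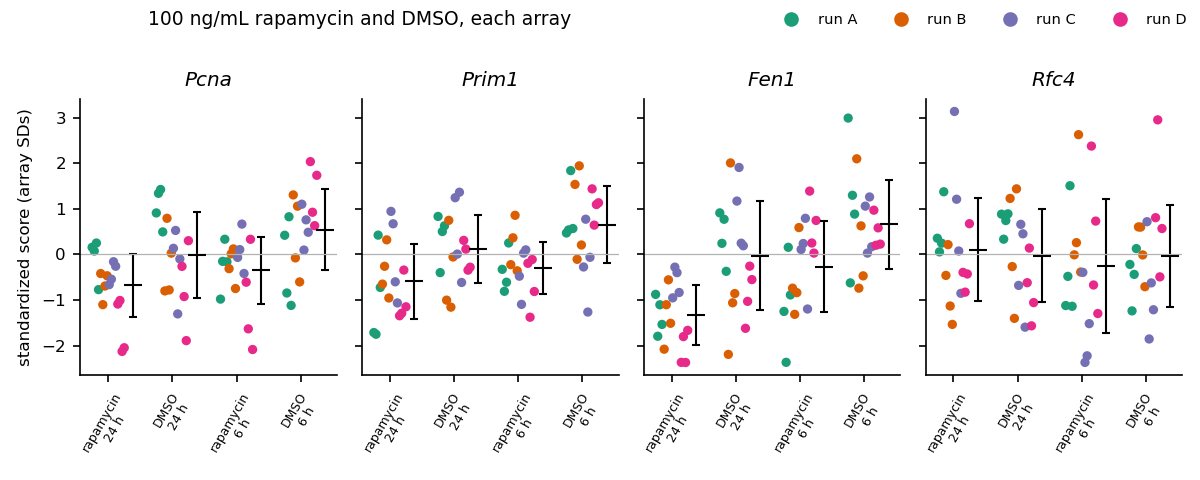
Standardized scores (array SDs) of single arrays for Pcna, Prim1, Fen1 and Rfc4 under 100 ng/mL rapamycin and in DMSO, 24 h then 6 h, coloured by run, with the mean and SD of 16 arrays beside each column. At 24 h the highest rapamycin array of Fen1 lies at -0.280, and the columns of Rfc4 overlap.

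After 24 h of 100 ng/mL rapamycin, Fen1 was the member called. It scored -2.37, -1.31 and -0.280 (lowest, median, highest) under rapamycin, against -2.19, -0.0345 and 2.01 in DMSO. All 16 rapamycin arrays lay below the DMSO median, and the ranges overlapped. The mean was -1.33 ± 0.664 under rapamycin and -0.0320 ± 1.20 in DMSO (SD, n = 16 each), a difference of -1.30 ± 0.329 (SE; limma adjusted p = 0.0113). It was below 0 in each run, at -1.72, -0.786, -1.50 and -1.19 in runs A to D, and in each combination of insulin and glucose. The call was lost without run A (-1.16, adjusted p = 0.142), without run C (-1.23, 0.117) and with runs as the unit (adjusted p = 0.0768). Of 10 members 1 was called lower and 0 higher, against 1.4% of all probes called lower.

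Of the other members at 24 h, Prim1 (-0.711), Rfc2 (-0.677), Pcna (-0.672) and Rfc5 (-0.671) lay lowest. Pold1 (-0.362), Prim2 (-0.451) and Rfc3 (-0.450) were nearer to DMSO, Pola1 (-0.130) was near it, and Rfc4 was slightly above (0.133). In all, 9 of 10 were below 0, 4 at an unadjusted p under 0.05, with a median of -0.561, against 0.0119 for all probes. The difference between the hours in the rapamycin effect was called for 0 members by limma, with 0 at an unadjusted p under 0.05 and 0.095% of all probes called. The 95% interval of that difference ran from -0.548 to 0.994 for Pcna and from -1.28 to 0.550 for Fen1.

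Averaging both hours, a comparison added after the values had been seen, gave 4 members lower under 100 ng/mL rapamycin, against 4.41% of all probes called lower. Fen1 differed by -1.11 ± 0.232 (limma adjusted p = 0.000282), Prim1 by -0.833 (0.00303), Pcna by -0.784 (0.00309) and Rfc2 by -0.666 (0.00459). All 10 members were below 0, and 6 had an unadjusted p under 0.05. With the runs as the unit Fen1 was the 1 call (adjusted p = 0.0420). Without run A, Fen1 stood at -0.826 (adjusted p = 0.0563), Prim1 at -0.684 (0.0936) and Rfc2 at -0.588 (0.0899). Without run B, Rfc2 stood at -0.573 (0.0551). Without run D, Pcna stood at -0.511 (0.114) and Prim1 at -0.663 (0.0697).

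Lower doses were set against the same DMSO arrays. At 1 ng/mL rapamycin, 0 members were called by limma at 6 h (1.54% of all probes called), with Pcna, Prim1 and Prim2 at an unadjusted p under 0.05 (-0.740, -0.639 and -0.736). At 24 h again 0 were called (1.47% of all probes), with Prim1 at -0.978 (adjusted p = 0.0582) and Fen1 at -0.748 at an unadjusted p under 0.05. Prim1 was called there without run B (-1.23, adjusted p = 0.0383). Averaged over both hours, Prim1 (-0.809, adjusted p = 0.00718) and Pcna (-0.625, adjusted p = 0.0373) were called lower at 1 ng/mL, against 3.07% of all probes. Prim1 lost its call without run D (-0.560, adjusted p = 0.241). Pcna lost its call without each of the runs in turn, at -0.564, -0.731, -0.612 and -0.595 without A, B, C and D (adjusted p 0.176, 0.0559, 0.164 and 0.0975). At 0.01 ng/mL, 0 members were called by limma at 24 h or 6 h, with 0 at an unadjusted p under 0.05 and 0% of all probes called. The direct contrast of 100 with 1 ng/mL called 0 members at 24 h and 0 at 6 h, with 1 and 0 at an unadjusted p under 0.05, and 0.0346% and 0.0518% of all probes called. At 6 h the interval of that contrast ran from -0.701 to 0.389 for Pcna and from -1.19 to 0.105 for Fen1.

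Under paclitaxel 0 members were called by limma at any dose and hour. At 1000 ng/mL, 0 members had an unadjusted p under 0.05 at 24 h (1.32% of all probes called) or at 6 h (0.294%). Pcna stood at -0.362 at 24 h and -0.187 at 6 h, and Fen1 at -0.366 and 0.222. Averaged over both hours, 0 were called and 0 had an unadjusted p under 0.05, with 2.19% of all probes called. Among the lower doses, Rfc2 at 1 ng/mL and 6 h (-0.545) had the 1 unadjusted p under 0.05, and 0% of all probes were called. Set directly against 1000 ng/mL paclitaxel at 6 h, 100 ng/mL rapamycin gave 2 members lower, against 2.74% of all probes called lower. Fen1 averaged -0.269 ± 0.994 under rapamycin and 0.881 ± 0.852 under paclitaxel (SD, n = 16 each), a difference of -1.15 ± 0.329 (limma adjusted p = 0.0150). Prim1 differed by -0.882 ± 0.293 (adjusted p = 0.0460), and all 10 members lay below 0. Both calls were lost without run A (Fen1 -0.825, 0.291; Prim1 -0.842, 0.203) and without run B (Fen1 -1.14, 0.0630; Prim1 -0.900, 0.106). Prim1 was also lost without C (-0.985, 0.0824) and D (-0.800, 0.173), and with no replicate block in the paired design (adjusted p = 0.0521). At 24 h 0 members differed between the drugs by limma (6.62% of all probes called), with Fen1 at -0.930 (adjusted p = 0.0685) and Rfc5 at -0.872 at an unadjusted p under 0.05. The doses of the drugs are not matched, so this sets each drug's top dose side by side.

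**Figure D3:**
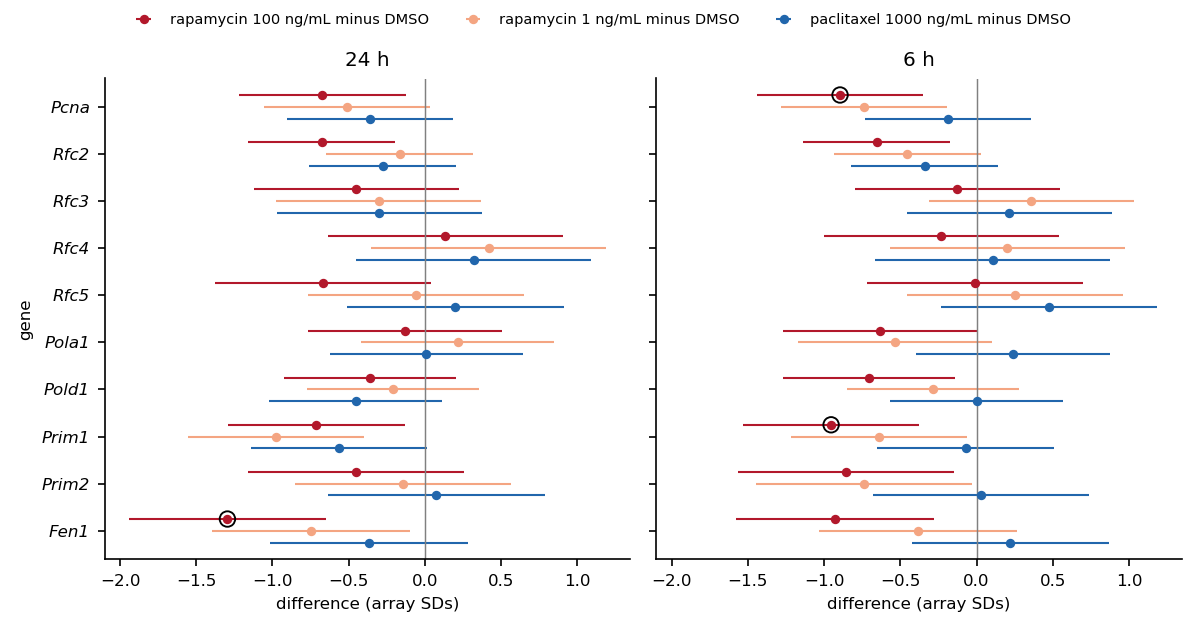
Difference from DMSO (array SDs, point and 95% confidence interval, 16 against 16 arrays) of each gene under 100 ng/mL rapamycin, 1 ng/mL rapamycin and 1000 ng/mL paclitaxel, 24 h on the left and 6 h on the right; black circles mark a limma adjusted p under 0.05. The circled points are Fen1 at 24 h (-1.30) and Pcna (-0.895) and Prim1 (-0.954) at 6 h.

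Some helicase and licensing genes were called lower under 100 ng/mL rapamycin at both hours. Mcm5, a helicase subunit, was called lower under 1000 ng/mL paclitaxel at 24 h as well. Of all probes, 261 were called under rapamycin at 24 h and 588 at 6 h, against 59 and 163 with the runs as the unit. The share of all probes called lower was 1.4% at 24 h and 2.18% at 6 h. Leaving out single runs was examined for the members only. Of 12 measured genes of the MCM helicase and its loading, 3 fell at 24 h under rapamycin, Mcm5 (-2.69 ± 0.512), the loading factor Cdt1 (-1.57) and the licensing inhibitor Gmnn (-1.48). At 6 h 5 fell, led by Mcm5 (-2.69 ± 0.512), Mcm6 (-1.84) and Cdt1 (-1.82). Of 18 other measured fork genes, such as the ligase Lig1 and the single-strand binding protein genes Rpa1 to Rpa3, 2 fell at 24 h, Gins1 (-1.67 ± 0.436), part of the helicase complex, and Timeless (-1.32), which travels with the fork. At 6 h 0 of them were called by limma and 3 were lower at an unadjusted p under 0.05. Of 9 partners of the clamp and genes of other clamps, 1 fell at each hour, Pclaf (-3.24 ± 0.589), a small protein that binds Pcna, at 24 h and the checkpoint clamp gene Rad1 (-0.773) at 6 h. Of 3 nucleotide genes 1 fell at 24 h, the thymidine kinase gene Tk1 (-1.71), and at 6 h 0 were called by limma, with 0 at an unadjusted p under 0.05. Of 7 regulators of S phase entry 1 fell at each hour, the cyclin gene Ccne1 (-1.23) at 24 h and the kinase gene Cdk2 (-1.35) at 6 h. Of 6 repair and translesion polymerase genes 1 rose at 24 h, the base excision repair polymerase gene Polb (0.767 ± 0.216), and at 6 h 0 were called by limma, with 1 higher at an unadjusted p under 0.05.

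Under 1000 ng/mL paclitaxel at 24 h the same lists held 2 lower and 1 higher gene, where 1.32% of all probes were called. Mcm5 differed from DMSO by -2.29 ± 0.512 (limma adjusted p = 0.00274) and Pclaf by -2.13 (0.0382), while the cell cycle inhibitor gene Cdkn1a was higher (1.41, 0.00136). At 6 h 0 genes of these lists were called by limma under paclitaxel, with 1 partner lower, 1 partner higher and 1 regulator lower at an unadjusted p under 0.05. Averaged over both hours, Mcm5 (-1.27) was lower and Cdkn1a (0.823) higher. Of 7 smooth muscle markers 3 were lower at 24 h under paclitaxel, Myl9 (-4.58), Tagln (-4.30) and Tpm2 (-1.89), with summed scores between -20.7 and 2.25 (median -15.7), against -14.6 and 4.71 (median -0.974) in DMSO. The part of these markers in the members' values under paclitaxel was not tested.

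Pcna and Fen1 were called lower at 25 mM glucose in the 6 h arms. At 6 h, over all 7 drug conditions, Pcna scored -2.09, -0.0630 and 1.73 (lowest, median, highest of 56 arrays) at 25 mM, against -1.58, 0.596 and 2.70 at 5 mM. The ranges overlapped, and 44 of 56 arrays at 25 mM lay below the 5 mM median. The difference was -0.651 ± 0.148 (SE; limma adjusted p = 0.00175). It was even across runs, at -0.549, -0.728, -0.640 and -0.686 in runs A to D, and below 0 in 12 of 14 conditions of drug and insulin. Pcna was called under each of the 13 alternatives run, with adjusted p between 0.000134 and 0.0305, and at 0.0253 with the runs as the unit.

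Fen1 followed at 6 h. It scored -2.37, 0.232 and 2.23 at 25 mM, against -2.09, 0.907 and 2.99 at 5 mM, with 45 of 56 arrays at 25 mM below the 5 mM median. The ranges overlapped. Its difference was -0.661 ± 0.176 (limma adjusted p = 0.0117), below 0 in all 4 runs (-0.951, -0.518, -0.724 and -0.450 in A to D) and in 13 of 14 conditions. With the runs as the unit its adjusted p was 0.0411, and the call was lost without run A (-0.564, 0.154) and without run C (-0.639, 0.0889). Thus 2 of 10 members were called lower and 0 higher, against 1.96% of all probes called lower. All 10 members were below 0, 5 at an unadjusted p under 0.05, and the median was -0.443, against 0.00579 for all probes. Of the uncalled members, Rfc5 (-0.515, adjusted p = 0.129), Pola1 (-0.509, 0.0772) and Prim1 (-0.485, 0.0588) lay lowest, and Rfc2 (-0.182) lay nearest to 0. Rfc5 was called without run B (-0.727, adjusted p = 0.0409), and Prim1 without run C (-0.602, 0.0446). In DMSO arrays alone, 8 against 8, 0 members were called by limma at 6 h (0.0346% of all probes), with all 10 below 0 and 5 at an unadjusted p under 0.05. In DMSO arrays at 24 h 0 were called (0.285% of all probes), with 1 member at an unadjusted p under 0.05.

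**Figure D4:**
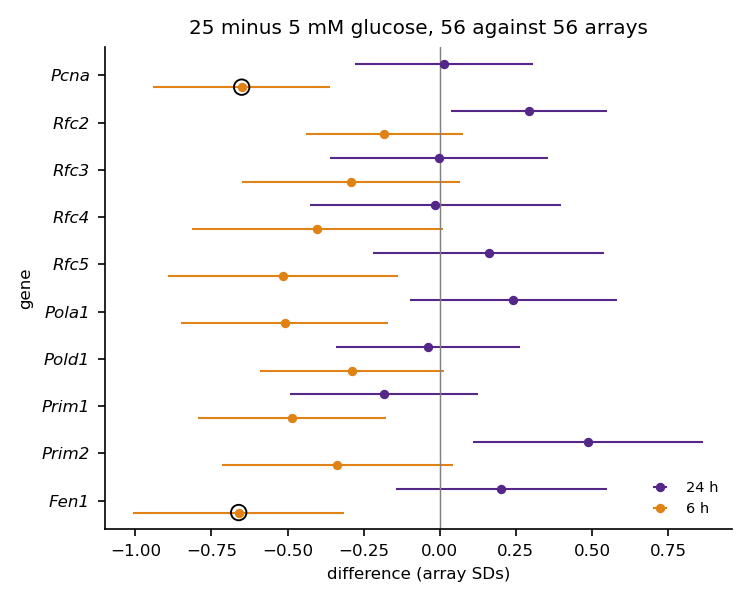
Difference of 25 mM from 5 mM glucose (array SDs, point and 95% confidence interval, 56 against 56 arrays over 7 drug conditions) for each gene at 24 h and 6 h; black circles mark a limma adjusted p under 0.05. At 6 h all 10 points lie below 0 and Pcna (-0.651) and Fen1 (-0.661) are circled, and at 24 h none is.

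At 24 h no member passed the test for glucose. By limma 0 of 10 members were called, though 10% of all probes were, and 2 had an unadjusted p under 0.05, Prim2 (0.487, adjusted p = 0.0895) and Rfc2 (0.293, adjusted p = 0.147). Rfc2 was called without run C (0.474, adjusted p = 0.0195). Pcna stood at 0.0139, with an interval from -0.278 to 0.305, and Fen1 at 0.202. A contrast of the glucose difference at 24 h with that at 6 h was added after the values had been seen. It called Fen1 (0.862 ± 0.248; limma adjusted p = 0.0339), 1 of 10 members higher, against 1.09% of all probes called higher. All 10 members were above 0 there, with 6 at an unadjusted p under 0.05, and Pcna stood at 0.665 (adjusted p = 0.0611). The contrast called 0 members with the runs as the unit, where 0 of all probes were called. Fen1 stood at 0.601 without run B (adjusted p = 0.425) and at 0.792 without run D (0.159), and without run A Pcna was called too (0.797, 0.0433).

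Other replication genes were lower at 25 mM glucose at 6 h in the same arrays, where 1.96% of all probes were called lower. Pclaf, the Pcna binding protein gene, differed by -1.93 ± 0.315 and was one of 2 called of 9 partners, the other being the nuclease gene Exo1 (-0.532). Mcm5 (-1.35), Cdt1 (-0.831) and Mcm6 (-0.717) were called among 12 licensing genes. Both Dut (-1.15), which clears dUTP, and Tk1 (-0.990) were called of 3 nucleotide genes. Of 18 other fork genes 3 fell: Gins1 (-1.01), Timeless (-0.750) and Chaf1b (-0.608), a subunit of the histone chaperone that Pcna recruits. Of 7 regulators of S phase entry 0 were called by limma, with 3 lower at an unadjusted p under 0.05. At 24 h other genes of these lists were called in both directions, where 10% of all probes were called in either direction. Most of these list counts were small beside that share. Of 18 fork genes 2 were higher, Pole3 (0.559) and Rpa2 (0.492), and 0 lower. Of 12 licensing genes 1 was lower, the origin subunit Orc3 (-0.377). Of 9 partners 1 was lower, the stress gene Gadd45a (-1.74, limma adjusted p = 1.1e-07), and 1 higher, Cdkn1a (0.482). Of 7 regulators 1 was higher, the pocket protein gene Rbl2 (0.430). The smooth muscle marker Cnn1 (0.488, 1 of 7) and the leukocyte marker Cd14 (0.516, 1 of 5) were higher too, and with the runs as the unit 0 of all probes were called at 24 h.

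Between the hours the members parted. Over all arrays, 112 against 112, 7 members were lower at 24 h than at 6 h and 1 was higher, against 21.8% and 19.5% of all probes called lower and higher. Rfc5 scored -2.71, -0.684 and 2.90 (lowest, median, highest) at 24 h, against -1.89, 0.499 and 4.09 at 6 h. The ranges overlapped, with 90 of 112 arrays at 24 h below the 6 h median. Its difference was -1.07 ± 0.136 (limma adjusted p = 6.7e-12). That SE and p measure the spread of single arrays, and with the runs as the unit the adjusted p of Rfc5 was 0.0822. Rfc3 (-0.955), Fen1 (-0.895), Rfc2 (-0.717), Pold1 (-0.610), Prim1 (-0.576) and Pcna (-0.446) were lower too. The polymerase alpha gene Pola1 was higher. It scored -3.09, 0.360 and 2.53 at 24 h, against -2.46, -0.282 and 1.73 at 6 h, with overlapping ranges. Its difference was 0.532 ± 0.122 (limma adjusted p = 0.000118, and 0.385 with the runs as the unit). Rfc4 stood at 0.00260 and Prim2 at -0.232 (adjusted p = 0.991 and 0.168).

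The difference between hours was uneven across runs. The median over the 10 members was -0.213 in run A, -0.812 in B, 0.0580 in C and -1.52 in D. Pcna stood at 0.328, -0.393, -0.191 and -1.53 in runs A to D, and without run D its difference was -0.0855 (adjusted p = 0.562). Pola1 stood at 1.33, 0.0923, 1.20 and -0.494, and lost its call without A (0.267, 0.139) and without C (0.309, 0.0959). Prim2 became called without A (-0.579, 0.00271) and without C (-0.497, 0.00635). Without run D, Rfc3 stood at -0.441, Fen1 at -0.564, Prim1 at -0.356, Pold1 at -0.306 and Pola1 at 0.874, each still called. Without run A, Pcna stood at -0.704, and without run C, Pold1 stood at -0.931. Rfc5 and Fen1 were below 0 in all 4 runs. With the runs as the unit 0 members were called by limma and 4 had an unadjusted p under 0.05, and 300 of all probes were called, against 4777. Across the 28 conditions of drug, insulin and glucose, Rfc2 was lower at 24 h in 27, Rfc3, Rfc5 and Fen1 in 26, and Pola1 in 5.

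**Figure D5:**
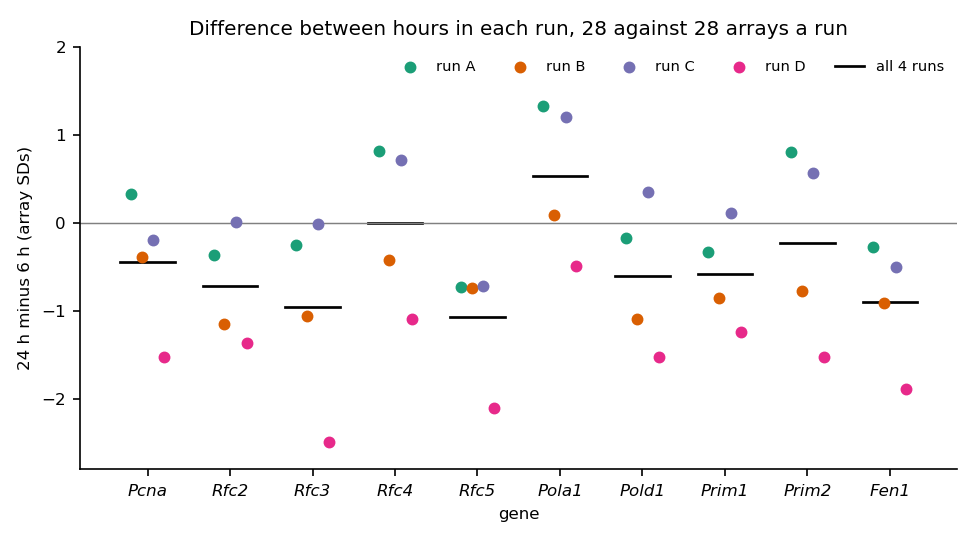
Difference of 24 h from 6 h (array SDs) for each gene in each run (coloured points, 28 against 28 arrays) and over all 4 runs (black line). Run D is the lowest point of every gene, Rfc5 and Fen1 lie below 0 in all 4 runs, and Pola1 is above 0 in runs A, B and C.

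Within single drug conditions fewer members passed. Between 24 h and 6 h in DMSO, 1 member was lower, Rfc2 (-0.920 ± 0.244, limma adjusted p = 0.00771), against 2.93% of all probes. It stood at -0.624 without run B (0.170) and at -0.728 without run D (0.137). Without run A Pcna was called there (-1.14, 0.0220), and without run C Pold1 (-1.02, 0.0444). Under 100 ng/mL rapamycin 4 were lower, Rfc5 (-1.45), Fen1 (-1.06), Rfc3 (-0.971) and Rfc2 (-0.942), against 5.32% of all probes. Under 1000 ng/mL paclitaxel 6 were lower, Fen1 (-1.28), Rfc3 (-1.16), Pold1 (-1.07), Rfc5 (-1.06), Prim1 (-1.03) and Rfc2 (-0.856), against 3.89% of all probes. In the same paclitaxel arrays 4 of 7 smooth muscle markers were lower at 24 h than at 6 h, Myl9 (-5.34), Tagln (-4.67), Tpm2 (-2.53) and Lmod1 (-1.10), and the fibroblast marker Dcn (1.48) and the leukocyte marker Cd14 (0.951) were higher. Their part in the 6 calls was not tested. Calls under both drugs rested on few runs. Without run D, 0 of the 4 rapamycin calls held, at -1.02 (Rfc5), -0.526 (Fen1), -0.517 (Rfc3) and -0.636 (Rfc2), and Pola1 was called higher (1.05, adjusted p = 0.0440). Without run B, Fen1 (-1.17, 0.0504) and Rfc3 (-0.949, 0.173) were lost, and without run A Rfc3 (-1.05, 0.121). Of the 6 paclitaxel calls, Fen1 alone held without each run. Without run D the other 5 stood between -0.883 (Prim1) and -0.678 (Pold1). Without run B, Rfc2 (-0.643), Rfc3 (-1.07), Rfc5 (-1.15) and Prim1 (-0.868) were lost. Without run A, Rfc2 (-0.842), Rfc3 (-1.30) and Rfc5 (-1.18) were lost, and without run C Rfc5 (-1.23). The contrast of the 1000 ng/mL paclitaxel effect between the hours called 0 members by limma, with 0 at an unadjusted p under 0.05 and 0.00864% of all probes called.

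Other genes were called between the hours in the same arrays, where 21.8% of all probes were called lower and 19.5% higher. With the runs as the unit 300 of all probes were called, against 4777. Of 18 other fork genes 12 were lower at 24 h, led by Rpa3 (-0.881), Chaf1b (-0.809) and Lig1 (-0.772), and 1 was higher, the small polymerase delta subunit gene Pold4 (1.34 ± 0.121). Of 12 licensing genes 5 were lower, led by Gmnn (-1.34), Mcm4 (-0.604) and Mcm6 (-0.600), and 2 higher, Cdt1 (0.630) and Orc4 (0.287). Of 9 clamp partners 3 were lower, Pclaf (-1.77), Cdkn1a (-1.39) and Exo1 (-0.289), and 2 higher, Gadd45a (1.88) and Rad1 (0.242). Tk1 (-1.18) was lower, 1 of 3 nucleotide genes. Of 6 repair polymerase genes Polm (-0.641) was lower, and Polb (0.527) and Rev3l (0.512) were higher. Of 7 regulators 3 were lower, Ccne1 (-0.703), Ccnd3 (-0.656) and Cdkn1b (-0.486).

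Cell type markers differed between the hours too, and unevenly over the drugs. Of 7 smooth muscle markers 5 were lower at 24 h over all arrays, led by Myl9 (-2.68), Tagln (-1.73) and Tpm2 (-1.65). Their summed score had a median of -15.7 under 1000 ng/mL paclitaxel at 24 h and between -3.37 and -0.866 in the other 24 h drug arms, against medians between 1.85 and 4.79 in the 6 h arms. The lowest array stood at -20.7 under 1000 ng/mL paclitaxel and at -14.6 in DMSO at 24 h. In DMSO alone 2 of 7 were lower at 24 h, Myl9 (-2.20) and Tpm2 (-1.51), and Tagln was not called. Of 3 adventitial fibroblast markers 2 were higher over all arrays, Dcn (1.22) and Pdgfra (0.856), with sums between -3.80 and 7.98 at 24 h, against -7.72 and 7.83 at 6 h. Of 5 leukocyte markers 1 was higher, Cd14 (0.394), with sums between -3.47 and 5.65 at 24 h, against -5.53 and 5.20 at 6 h. Of 5 endothelial markers and 5 of cartilage and bone 0 were called by limma and 0 had an unadjusted p under 0.05. The part of these cell type markers in the members' differences was not tested.

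No member passed the test for insulin. At 24 h, 56 against 56 arrays, 0 were called by limma (3.98% of all probes called), though all 10 lay above 0. Rfc4 (0.498, adjusted p = 0.192), Rfc5 (0.429) and Rfc3 (0.422) had an unadjusted p under 0.05. Runs were uneven, with Rfc4 at 1.56 in run C and at 0.00220, 0.0711 and 0.355 in A, B and D. Pcna differed by 0.0261, with an interval from -0.265 to 0.318. At 6 h 0 were called (7.07% of all probes), with Pold1 (0.358, adjusted p = 0.149) at an unadjusted p under 0.05. The insulin difference between the hours was called for 0 members, with 2 at an unadjusted p under 0.05 and 2.12% of all probes called. Among the other lists at 24 h, Mcm5 (1.07), Pclaf (0.993), Tk1 (0.793), Rpa3 (0.730), Cdkn1a (0.610) and Ccne1 (0.578) were higher with insulin and Gadd45a (-0.832) was lower. At 6 h the histone chaperone genes Supt16h (0.438) and Ssrp1 (0.433) were higher, and Pold4 (-0.514), Rnaseh2a (-0.493), Gadd45a (-0.859), Tfdp2 (-0.894), Rbl2 (-0.822) and Cdkn1b (-0.694) were lower. With the runs as the unit 0 of all probes were called for insulin at 24 h, against 461, and 0 at 6 h, against 818, so each of these calls was lost. In DMSO alone 0 members were called at 24 h or 6 h, with 0 at an unadjusted p under 0.05 and 0% of all probes called. Whether rapamycin acted differently with insulin or with 25 mM glucose was called for 0 members by limma at either hour, with 0% of all probes called and 0 to 1 members at an unadjusted p under 0.05.

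Most pairs of members had a positive correlation across the study. Over the means of the 56 groups, the 45 pairs of members had a median Pearson r of 0.492, between -0.171 (Rfc3 with Pola1) and 0.835 (Rfc2 with Fen1), and 40 were above 0. Fen1 was closest to the mean of the other 9 (r = 0.879), then Rfc2 (0.785) and Prim1 (0.760). Rfc4 (0.158) and Pola1 (0.0931) were least like the rest. Within groups, over 224 arrays after group means and run effects were taken off, all 45 pairs were above 0, with a median of 0.360. There Rfc4 and Pola1 had an r of 0.531 and 0.518 with the mean of the other 9. Shifts of a run at a single hour were not taken off. The group means share runs, hours and array scaling, so these values are a description. The 5 other named genes most like the members' mean over the 56 groups were Gmnn (0.830), Tk1 (0.826), Pclaf (0.826), Meox2 (0.809) and Orc6 (0.803).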

How the data were processed

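The deposited table holds 1 score per probe and array. Per the series' text, the authors normalized arrays by loess, filtered features on intensity (30) and on the share of good data (70%), filled gaps from 3 nearest neighbours, removed principal components linked to runs and standardized the values, so that the deposited scores are in array SDs. No value is missing. Comparisons had been planned for log2 or standardized values and were run on these scores. Depth does not apply to arrays.

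Of 11575 probes, 7473 had 1 gene symbol in the platform annotation and 2 had several. limma 3.58.1 in R 4.3.3 (lmFit, eBayes) fitted 56 group means with the run as a block over all 224 arrays (165 residual degrees of freedom), two-sided, adjusted by Benjamini-Hochberg over all probes within each of 39 comparisons, and called at 0.05. Drug contrasts average the 4 combinations of insulin and glucose. The pairing by run comes from the series' text; deviations from group means had a correlation of 0.0654 among arrays of the same run and hour, and of -0.0218 where the hour differed. The fit was tested on simulated data with independent noise in each array, so that test does not cover shifts shared by the arrays of a run. All 10 members are named whatever their result, of each context list up to 3 called genes a direction in the main comparisons (100 ng/mL rapamycin or 1000 ng/mL paclitaxel against DMSO at each hour, and glucose, insulin and hour over all drugs), and the 5 genes most like the members; a few others were chosen after their values were seen. A gene with several probes goes by its first. Members and lists were chosen with earlier results of these data known. Sample titles gave groups and runs; 1 title ended in a shortened glucose label and was placed by its condition number. Alternatives were 13 settings.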

Additional observations from a re-analysis of the deposited data

Results flagged for a closer look

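The vehicle array of DMSO cells at 5 mM glucose, 24 h, run B, stood apart for Rfc2 at -2.11, while the other 7 DMSO arrays at 5 mM glucose and 24 h lay between -0.639 and 0.625. The insulin array of the same run, hour, drug and glucose stood apart for Prim2 at -3.66, with the other 7 DMSO arrays with insulin at 24 h between -1.17 and 0.963. Sets of 8 DMSO arrays were examined 80 times for a lone array, and 2 were found, where chance alone marks about 1 set in 20.

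The glucose difference of Fen1 differed between the hours by 0.862 ± 0.248 (24 h minus 6 h, SE; limma adjusted p = 0.0339), in a contrast added after the values were seen. The contrast called 0 members with the runs as the unit, 0 without run B and 0 without run D.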

How the results depend on the processing

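Over 13 alternatives and 39 comparisons, 4687 values of members kept their direction and call, 91 lost a call, 29 gained one and 183 changed sign while not called; 0 called values turned round. Counts of called members stayed within 1.5 times in 444 cases and moved in 55. With the 4 runs as the unit, which leaves few degrees of freedom, 0 members were called for 100 ng/mL rapamycin at 6 h or at 24 h, for 1 ng/mL over both hours, for 100 ng/mL rapamycin against 1000 ng/mL paclitaxel at 6 h, for 24 h against 6 h in DMSO, 100 ng/mL rapamycin, 1000 ng/mL paclitaxel or all drugs, or for the glucose difference between hours, and 1 was called for 100 ng/mL rapamycin over both hours. All probes called with runs as the unit were 300 against 4777 for the hour over all drugs, 163 against 588 and 59 against 261 for 100 ng/mL rapamycin at 6 h and 24 h, 206 against 409 for glucose at 6 h and 0 against 1159 at 24 h, and 0 against 818 and 461 for insulin at 6 h and 24 h. With the run by hour as the replicate block, which could not be fitted for comparisons between hours, 4 members were called for 100 ng/mL rapamycin at 6 h, 4 against paclitaxel at 6 h, 4 for glucose at 6 h, and at 24 h 1 each for 1 ng/mL rapamycin, for 100 ng/mL rapamycin against paclitaxel and for glucose. Under that block Pold1 (limma adjusted p = 0.0302) and Prim2 (0.0321) were also called for 100 ng/mL rapamycin over both hours. Without the replicate block, 1 was called for rapamycin against paclitaxel at 6 h. With the compared arms alone, 4 were called for rapamycin against paclitaxel at 6 h and 1 at 24 h, 4 for glucose at 6 h and 1 at 24 h, and 1 for 1 ng/mL rapamycin over both hours. Quantile normalization left 1 call against paclitaxel at 6 h, and leaving out the 2 arrays titled as repeats gave 1 for 1 ng/mL rapamycin at 24 h. Except with runs as the unit, shares of all probes are not given for these settings. A gain in members there cannot be told from a gain over all probes.

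Leaving out each run in turn gave 0 to 1 called members for 100 ng/mL rapamycin at 6 h, at 24 h and against paclitaxel at 6 h, and likewise 0 to 1 for 1 ng/mL rapamycin at 24 h and over both hours, and for glucose at 24 h. It gave 1 to 4 for 100 ng/mL rapamycin over both hours, 1 to 3 for glucose at 6 h and 0 to 2 for the glucose difference between hours. For 24 h against 6 h it gave 0 to 2 in DMSO, 1 to 4 under 100 ng/mL rapamycin and 1 to 5 under 1000 ng/mL paclitaxel, and 7 to 8 over all drugs. The cause of these moves was not tested. The number of arrays limits precision: the median SE was 0.286 for 16 against 16 arrays and 0.153 for 56 against 56, and signal over background was not used here.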
